A study of Mus musculus with 18 samples.

Results

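The genes described here are named for the DEAD-box (Ddx) and DEAH-box (Dhx) families of RNA helicases, 43 in all, of 14864 loci in the RNA table and 11855 loci that were tested. They were chosen by name, as every entry with 1 symbol that is Ddx or Dhx followed by a number, without Ddx3y, and with a mean of at least 1 RPKM (reads scaled to transcript length and to the mapped reads of the library) over 6 libraries. Of 45 such symbols, Ddx25, with a mean of 0.970 RPKM, and Ddx60, with 0.577 RPKM, fell below that level. The 43 genes are 28 Ddx and 15 Dhx genes, and the name pattern takes in Ddx11, which acts on DNA. Ddx5 and Ddx24 share their entry with other symbols and were left out for that reason, and Ddx19a, Ddx19b, Ddx28, Ddx39b and Dhx30 had no entry that could be used.

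The study measured 5-methylcytosine (m5C) in RNA and the loss of RNA after a transcription block in mouse embryonic stem cells. The cells were labelled Tet2 KO or wild type (WT), Tet2 being an enzyme that oxidises 5-methylcytosine, and all were grown with LIF on a layer of mouse embryonic fibroblasts. For the RNA series each genotype had 1 library without actinomycin D (0 h) and 1 library each after 3 and 6 h of 5 µg/ml actinomycin D, which stops RNA polymerase. For the sites, bisulfite sequencing of poly(A) RNA was run on 2 Tet2 KO and 2 WT samples. The deleted stretch of Tet2, the number of clones behind the Tet2 KO cells and whether samples came from separate cultures are not in the labels. P-values here measure no more than how these samples spread, and that spread may be technical.

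RNA helicases of these families use ATP to pry apart RNA duplexes or to strip proteins from RNA, and many act within a particular RNA-protein particle. DEAD-box proteins open short duplexes locally, and DEAH-box proteins pull along a strand. They drive the remodelling steps of splicing, ribosome assembly, translation initiation and mRNA decay. Ddx4 is a marker of germ cells, and Ddx58 and Dhx58 belong to the group that senses viral RNA.

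Read counts are not given, so the depth of each library and the counting error of each RPKM are unknown. Tet2 itself had 22.98, 11.2 and 10.1 RPKM at 0, 3 and 6 h in Tet2 KO cells, against 23.7, 17.9 and 12.5 RPKM in WT cells. The ranges of the genotypes overlapped, and directions between genotypes rest on the labels. Of 10 embryonic stem cell markers 8 had an entry of their own, 7 of them above 1 RPKM in every library. Their summed level lay between 1000 and 1163 RPKM in Tet2 KO libraries and between 845 and 1146 RPKM in WT libraries. Pou5f1, with 415 to 799 RPKM, made up the largest part, so the sum says little of the other markers. Of 14 fibroblast markers 11 had an entry, all above 1 RPKM in every library, with sums between 724 and 940 RPKM in Tet2 KO libraries and between 678 and 1045 RPKM in WT libraries. Vim, with 305 to 506 RPKM, made up the largest part of these sums. Fibroblast markers were thus detected in all libraries, and the part of feeder RNA in the levels of the helicase genes was not tested. In such bulk RNA, fewer cells of a type and less RNA per cell cannot be told apart.

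Promoter windows were read for CG content and short motifs. RefSeq promoters of GRCm38.p6 were given for 37 of the 43 genes, as 44 windows of the 250 bases before a transcript start. The median window held 18 CG dinucleotides, against 16 in windows of the tested loci and 6 in all windows of the table. The letters CCGGAAG, the core bound by ETS factors, stood on either strand in 14 member windows or 31.8%, against 13.9% of windows of tested loci and 6.91% of all windows. Ddx1, Ddx10, Ddx49, Ddx54, Dhx9, Dhx16, Dhx36 and Dhx37 are among the genes with that match. The GC box letters GGGCGG were in 63.6% of member windows and 59.1% of windows of tested loci, CCAAT was in 40.9% and 36.0%, and the E-box CACGTG was in 11.4% and 8.54%. TATAAA was in 6.82% of member windows and 6.28% of windows of tested loci. Windows of 1 gene can overlap, as the 2 of Ddx49 do nearly in full. A match is a description of the letters and shows no binding. The windows of Ddx20, the gene with the steepest loss after actinomycin D that passed the test, and of Ddx4 and Ddx55, the genes with the highest Tet2 KO minus WT difference, follow with every CG in capitals, 5′ to 3′, from the RefSeq table, each on the strand of its gene. No entry was found for Ddx6.
Ddx20: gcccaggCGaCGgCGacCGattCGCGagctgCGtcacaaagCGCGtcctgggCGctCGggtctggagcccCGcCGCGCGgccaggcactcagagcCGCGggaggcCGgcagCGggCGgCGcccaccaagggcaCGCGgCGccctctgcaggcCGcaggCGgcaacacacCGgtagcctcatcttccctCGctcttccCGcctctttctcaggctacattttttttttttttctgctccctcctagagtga
Ddx4: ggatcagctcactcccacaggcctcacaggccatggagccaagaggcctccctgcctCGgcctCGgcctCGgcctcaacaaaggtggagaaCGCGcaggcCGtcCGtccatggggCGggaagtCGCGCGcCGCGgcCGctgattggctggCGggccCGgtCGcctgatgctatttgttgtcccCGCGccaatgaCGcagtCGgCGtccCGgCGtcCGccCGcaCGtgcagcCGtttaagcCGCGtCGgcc
Ddx55: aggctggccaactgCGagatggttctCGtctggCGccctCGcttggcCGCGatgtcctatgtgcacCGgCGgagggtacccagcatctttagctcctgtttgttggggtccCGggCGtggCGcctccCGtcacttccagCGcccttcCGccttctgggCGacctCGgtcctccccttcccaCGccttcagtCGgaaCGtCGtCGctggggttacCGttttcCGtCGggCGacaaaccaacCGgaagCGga
The Ddx20 window, chr3:105687572-105687821 on the minus strand, holds 29 CG and a GC box. The Ddx4 window, chr13:112652311-112652560 on the minus strand, holds 31 CG together with the E-box, CCAAT and GC box letters, and belongs to a gene expressed mainly in germ cells. The Ddx55 window, chr5:124552614-124552863 on the plus strand, holds 27 CG and the ETS core. The transcript start behind a window need not be the 5′ end of the gene. The Ddx4 window lies wholly inside the span of its gene, which reaches to 112652633. The windows of Ddx20 and Ddx55 lie partly inside their genes, whose 5′ ends are at 105687788 and 124552832. All 3 windows are richer in CG than over 91% of all windows in the table. That share was not counted among windows of tested loci, whose median of 16 CG is higher.

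In level, the helicase genes spanned from 1.35 to 179.6 RPKM on average over the 6 libraries, with a median of 14.3 RPKM, against 7.25 RPKM for all tested loci. The most abundant were a splicing helicase, an export helicase and a translation helicase. Dhx16, which remodels the spliceosome just before the first step of splicing, had 176.5, 217.3 and 134.2 RPKM at 0, 3 and 6 h in Tet2 KO cells, against 212.3, 197.8 and 139.5 RPKM in WT cells. Ddx39, an export helicase that RefSeq names Ddx39a, had 122.9, 141.0 and 127.9 RPKM in Tet2 KO cells, against 125.1, 132.1 and 111.9 RPKM in WT cells. For both genes the ranges of the genotypes overlapped, and Dhx16 was lowest at 6 h in each genotype. How reads matching several genes were counted is not given, so Ddx39 may share reads with its close relative Ddx39b, and Ddx3x with Ddx3y.

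Ddx3x, which helps ribosomes start on structured mRNAs, had 128.7, 139.6 and 143.9 RPKM at 0, 3 and 6 h in Tet2 KO cells, against 92.2, 126.6 and 98.8 RPKM in WT cells. Every Tet2 KO value lay above every WT value. Dhx9, a nuclear helicase of transcription and RNA processing, had 80.6, 85.0 and 91.4 RPKM in Tet2 KO cells, against 73.7, 96.7 and 72.2 RPKM in WT cells, and here the ranges overlapped, with the highest library WT at 3 h. The nucleolar helicase Ddx21, the splicing helicase Dhx15 and the splicing cofactor Ddx17 followed, with means of 76.2, 75.5 and 74.1 RPKM. The library ranges of these neighbours in the order overlapped.

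By role, the 11 helicases of splicing had a median level of 20.5 RPKM, the 15 of ribosome synthesis 15.7 RPKM and the 7 of cytoplasmic mRNA 14.3 RPKM. In the splicing group the lowest mean level was 8.44 RPKM, of Dhx38, which acts at the second step of splicing. The 15 genes with a mean below 10 RPKM include Dhx29, which helps ribosomes scan, and Dhx37 and Ddx51, which act in ribosome assembly. The least abundant gene was Dhx34, which acts in nonsense-mediated decay. It had 1.27, 0.743 and 1.51 RPKM in Tet2 KO cells, against 1.34, 1.06 and 2.19 RPKM in WT cells. Ddx59, whose role is not assigned here, had 3.84, 2.67 and 2.18 RPKM in Tet2 KO cells, against 4.81, 4.16 and 3.51 RPKM in WT cells, and it was highest at 0 h in each genotype. Ddx55, a helicase of the large ribosomal subunit, had 6.74, 3.13 and 2.25 RPKM in Tet2 KO cells, against 2.45, 2.45 and 1.55 RPKM in WT cells. Its Tet2 KO library at 0 h stood above the other libraries.

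**Figure D1:**
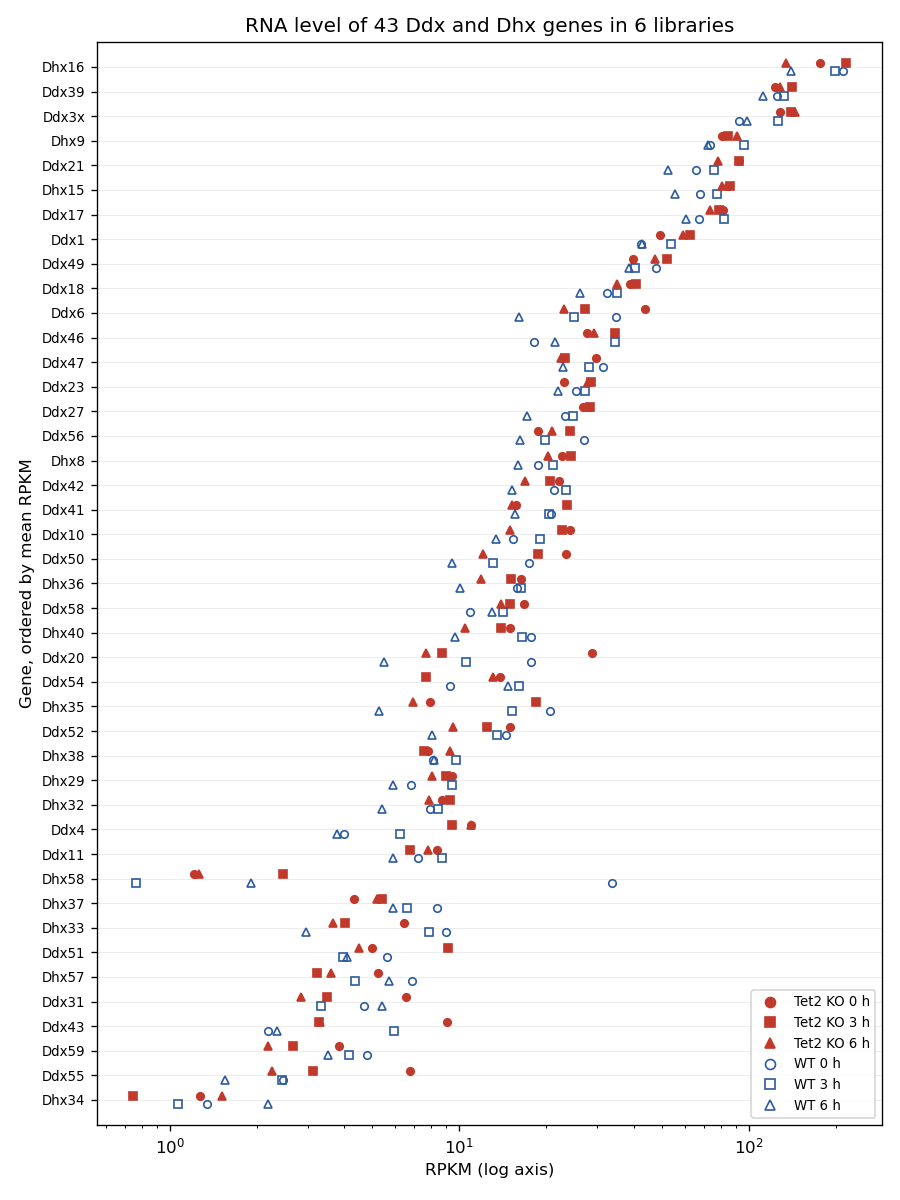
RNA level of the 43 Ddx and Dhx genes in each library, in RPKM on a log axis, ordered by mean level, with filled red marks for Tet2 KO and open blue marks for WT at 0, 3 and 6 h. Most genes keep their place across the 6 libraries, and Dhx58 has 1 library, WT at 0 h, at 33.6 RPKM while its other libraries lie between 0.765 and 2.46 RPKM.

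After the transcription block, 2 of the 43 genes fell relative to the rest of the library and 0 rose, while 7.91% of all tested loci fell and 0.118% rose by the same test. The genes that fell are Ddx20, a subunit of the SMN complex that assembles splicing particles, and Ddx6, a helicase of mRNA decapping and translational repression. The test was limma on log2(RPKM + 1) with a slope per hour over the 6 libraries, genotype as a factor and adjustment over all loci at 0.05. Slopes are changes relative to the library, because each RPKM is scaled to its own library. The share of genes called, 4.65%, does not exceed the background. Unadjusted, 7 of 43 genes were lower at p under 0.05, or 16.3%, against 22.7% of all loci, and 35 of 43 slopes were below 0, against 72.1% of all loci. The median slope was -0.04 per hour on the log2 scale for the helicase genes and -0.05 for all loci, and 24 of 43 genes lay above the median of all loci. After quantile normalization both medians turned to 0.02.

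Ddx20 (chr3:105678270-105687788) had 28.8, 8.72 and 7.70 RPKM at 0, 3 and 6 h in Tet2 KO cells, against 17.7, 10.51 and 5.48 RPKM in WT cells. Both genotypes were highest at 0 h and lowest at 6 h, and the level at 6 h was 0.267 of that at 0 h in Tet2 KO cells and 0.310 of it in WT cells. The slope was -0.28 per hour (SE 0.05, limma adjusted p = 0.0220). With 1 library left out the slope lay between -0.31 and -0.21. The adjusted p was 0.119, 0.00480 and 0.0294 without Tet2 KO at 0, 3 and 6 h, and 0.0856, 0.0735 and 0.140 without WT at 0, 3 and 6 h. It was 0.136 after quantile normalization and 0.0593 after scaling to the Rpl and Rps genes.

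Ddx6 (chr9:44602983-44640731) had 43.9, 27.2 and 23.04 RPKM in Tet2 KO cells, against 34.7, 24.9 and 16.1 RPKM in WT cells. It fell at each step in both genotypes, to 0.524 of its starting level in Tet2 KO cells and to 0.464 of it in WT cells by 6 h. The slope was -0.16 per hour (SE 0.04, limma adjusted p = 0.0440). Leaving out Tet2 KO at 0 or 6 h gave adjusted p-values of 0.156 and 0.130, leaving out WT at 0, 3 or 6 h gave 0.242, 0.0745 and 0.197, and without Tet2 KO at 3 h the call held. It was 0.137 after quantile normalization and 0.0571 after scaling to the Rpl and Rps genes.

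Other genes had low slopes that did not pass the test. Dhx33, a nucleolar helicase of ribosomal RNA synthesis, had 6.43, 4.01 and 3.67 RPKM in Tet2 KO cells, against 9.02, 7.83 and 2.94 RPKM in WT cells, with a slope of -0.17 (SE 0.05, limma adjusted p = 0.0978). Ddx50, a nucleolar relative of Ddx21 picked for its low p after the values were seen, had 23.3, 18.8 and 12.04 RPKM in Tet2 KO cells, against 17.4, 13.1 and 9.42 RPKM in WT cells, with a slope of -0.14 (limma adjusted p = 0.0666). Both were lowest at 6 h in each genotype. Dhx58, known as LGP2 and a regulator of viral RNA sensing, had the lowest slope of the helicase genes, -0.30 (SE 0.17, limma adjusted p = 0.340). Dhx35 had a slope of -0.16 (SE 0.09, limma adjusted p = 0.307), with its levels given with the slope differences. The Dhx58 levels were 1.22, 2.46 and 1.26 RPKM in Tet2 KO cells, against 33.6, 0.765 and 1.91 RPKM in WT cells. Without the WT library at 0 h the Dhx58 slope was 0.05.

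At the other end, Dhx34 had a slope of 0.05, at the low levels given above. Ddx54, a nucleolar helicase, had 13.9, 7.66 and 13.0 RPKM in Tet2 KO cells, against 9.29, 16.1 and 14.7 RPKM in WT cells, with a slope of 0.04 (SE 0.06, limma adjusted p = 0.731). Ddx46, which helps to place the U2 particle on the branch site, had 27.6, 34.4 and 29.2 RPKM in Tet2 KO cells, against 18.1, 34.6 and 21.4 RPKM in WT cells, and a slope of 0.03. For Ddx46 the middle time was the highest in both genotypes, and for Ddx54 the genotypes went opposite ways at 3 h. Ddx1, part of the tRNA ligase complex, had 49.3, 62.6 and 59.4 RPKM in Tet2 KO cells, against 42.6, 53.9 and 42.9 RPKM in WT cells, with a slope of 0.02. It was not below its 0 h level at any later time in either genotype.

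Grouped by role, 14 of 15 slopes in ribosome synthesis were below 0, with a median of -0.05 and no gene called, and 4 of them had an unadjusted p under 0.05: Dhx33, Ddx50, Ddx55 and Ddx52. In splicing 8 of 11 slopes were below 0, with a median of -0.03 and Ddx20 called. In cytoplasmic mRNA 4 of 7 were below 0, with a median of -0.03 and Ddx6 called. These medians lie close to that of all loci. Of all loci 72.1% had a slope below 0, and 22.7% were lower at an unadjusted limma p under 0.05. At 6 h 26 of the 43 genes were below their 0 h level in both genotypes and 5 were above it in both, Ddx1, Ddx3x, Ddx46, Dhx34 and Dhx38. The count at 6 h was not made over all loci.

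**Figure D2:**
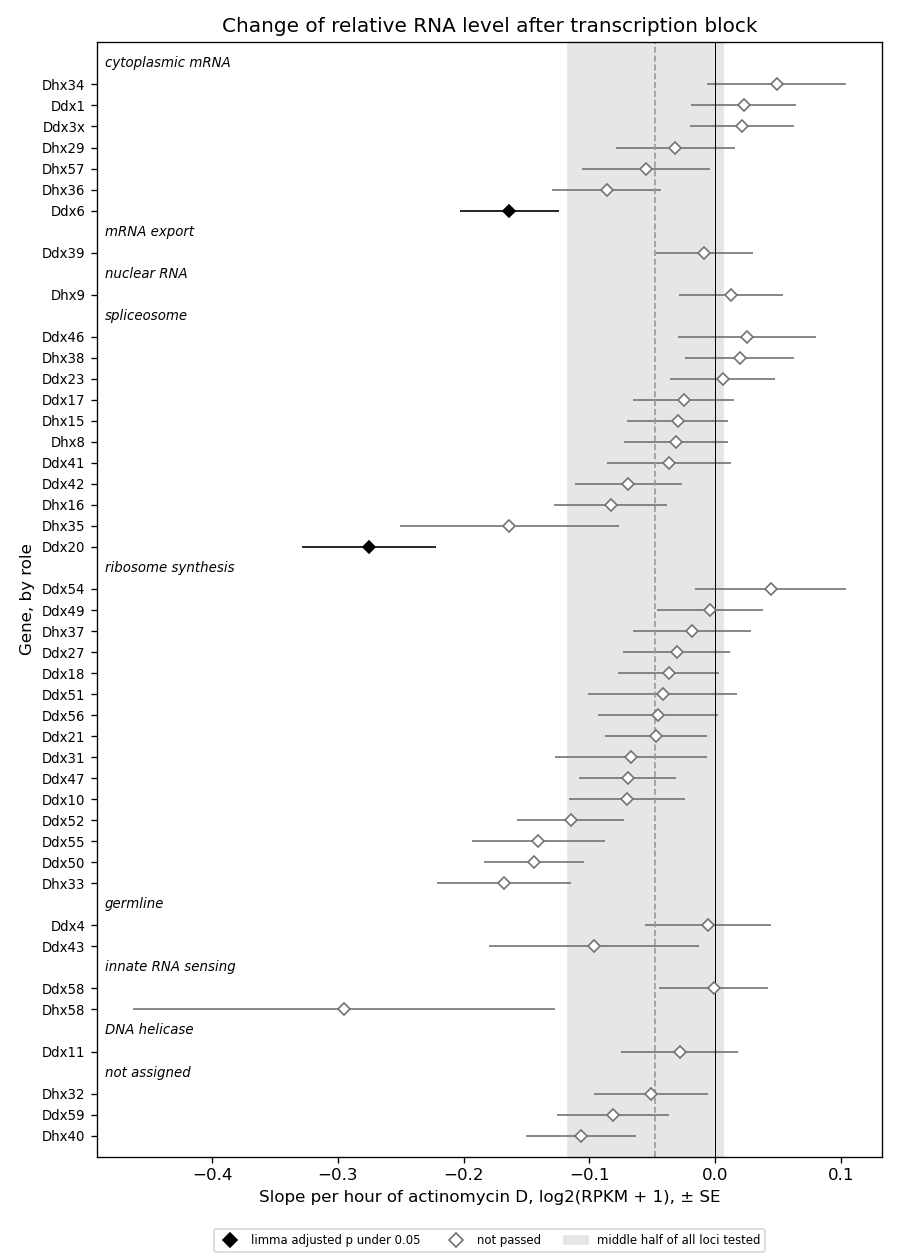
Slope per hour of actinomycin D on the log2(RPKM + 1) scale for the 43 genes grouped by role, with bars of ± 1 SE, filled diamonds for limma adjusted p under 0.05, a dashed line at the median of all tested loci and a grey band for their 25th to 75th percentile. Ddx20 at -0.28 and Ddx6 at -0.16 are the filled marks, and Dhx58 at -0.30 has the widest bar.

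**Figure D3:**
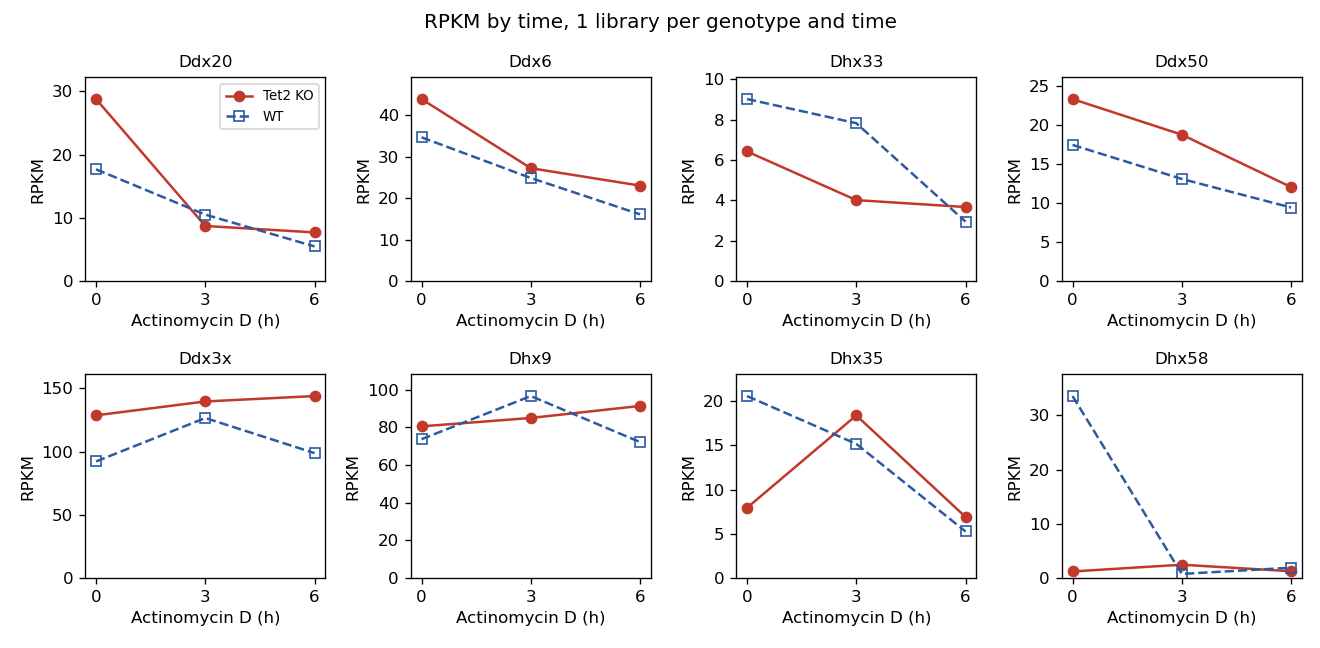
RPKM against hours of actinomycin D for 8 helicase genes, with filled red circles and solid lines for Tet2 KO and open blue squares and dashed lines for WT, 1 library per point. Ddx20, Ddx6 and Ddx50 are lower at each later time in both genotypes, Ddx3x and Dhx9 are not lower at 3 h than at 0 h, and Dhx58 is high in WT at 0 h alone.

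Between the genotypes no helicase gene passed the test, with 0 of 43 called by limma (time as a factor, 2 residual degrees of freedom) against 0.0759% of all loci. The highest difference was that of the germ cell helicase Ddx4, and Ddx21 was the other gene with an unadjusted p under 0.05. These 2 genes are 4.65% of the 43, against 10.8% of all loci, and both were higher in Tet2 KO cells, as were 6.28% of all loci. Differences were above 0 for 29 of 43 genes, against 54.7% of all loci, with a median of 0.09 on the log2 scale against 0.04 for all loci.

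Ddx4 (chr13:112598333-112652633), the mouse Vasa homologue, had 10.98, 9.47 and 10.97 RPKM at 0, 3 and 6 h in Tet2 KO cells, against 3.996, 6.23 and 3.78 RPKM in WT cells. The genotypes did not overlap, with ratios of Tet2 KO to WT of 2.75, 1.52 and 2.90 at the 3 times. The difference was 1.04 on the log2 scale (SE 0.24, limma adjusted p = 0.309), and it lay between 0.90 and 1.29 with any library left out. Ddx43, a helicase of testis and tumours, had 9.05, 3.26 and 3.31 RPKM in Tet2 KO cells, against 2.19, 5.97 and 2.34 RPKM in WT cells. Its genotypes overlapped, with ratios of Tet2 KO to WT of 4.13, 0.547 and 1.41 at the 3 times and a difference of 0.44 (SE 0.44, limma adjusted p = 0.735).

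Among helicases of ribosome synthesis, Ddx21 (chr10:62580247-62602298), which links ribosomal DNA transcription to RNA processing, had 92.6, 92.2 and 78.1 RPKM in Tet2 KO cells, against 65.7, 75.9 and 52.5 RPKM in WT cells. The genotypes did not overlap, and the difference was 0.44 (SE 0.16, limma adjusted p = 0.420). Ddx55, with the values above, differed by 0.59 (SE 0.27, limma adjusted p = 0.483), and its genotypes overlapped. Of the 15 genes of ribosome synthesis 10 had a difference above 0, with a median of 0.13 and none called.

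Toward lower levels in Tet2 KO cells, Dhx58 had a difference of -1.12 (SE 0.87, limma adjusted p = 0.668). Leaving out either 0 h library takes the 0 h pair out of this fit and gave 0.30. In the same WT library Ifih1, the sensor MDA5 and a helicase of the same group, had 2.30 RPKM against 0.601 to 1.18 RPKM in the other 5 libraries, while Ddx58, the sensor RIG-I, had its lowest level there, 10.9 RPKM. Ddx58 had 16.7, 14.95 and 14.0 RPKM in Tet2 KO cells, against 10.9, 14.2 and 13.0 RPKM in WT cells. Kat2a, the neighbour of Dhx58, had 13.4, 15.7 and 16.7 RPKM in Tet2 KO cells, against 18.5, 18.5 and 13.1 RPKM in WT cells. Ddx60, with a mean of 0.577 RPKM, had 0.674, 0.650 and 0.381 RPKM in Tet2 KO cells, against 1.06, 0.504 and 0.197 RPKM in WT cells. Its highest level, though low, was thus in the WT library at 0 h, as for Dhx58 and Ifih1. The source of the high Dhx58 value was not tested. Ddx58, Ddx60, Ifih1 and Kat2a were chosen for this comparison after their values were seen.

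Ddx59 differed by -0.42 (SE 0.21, limma adjusted p = 0.529) and was lower in Tet2 KO cells at each time, though the ranges over time overlapped. Dhx57, a less studied cytoplasmic helicase, had 5.23, 3.21 and 3.60 RPKM in Tet2 KO cells, against 6.85, 4.37 and 5.73 RPKM in WT cells, a difference of -0.41 (SE 0.20, limma adjusted p = 0.525). It too was lower at each of the 3 times. In splicing 7 of 11 differences were above 0, with a median of 0.09, and in cytoplasmic mRNA 5 of 7, with a median of 0.25. None was called.

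Without overlap between the 3 Tet2 KO and the 3 WT values, 5 genes were above WT, namely Ddx3x, Ddx21, Dhx15, Ddx27 and Ddx4. They are 11.6% of the helicase genes, against 6.05% of all tested loci. One gene, Dhx37, was below WT, or 2.33%, against 4.67% of all loci. Counted by time, 14 genes were higher in Tet2 KO cells at all 3 times, 5 were lower at all 3 and 24 were mixed. This count by time was not made over all loci, of which 54.7% had a difference above 0. It therefore cannot tell whether a lean is particular to the helicase genes.

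**Figure D4:**
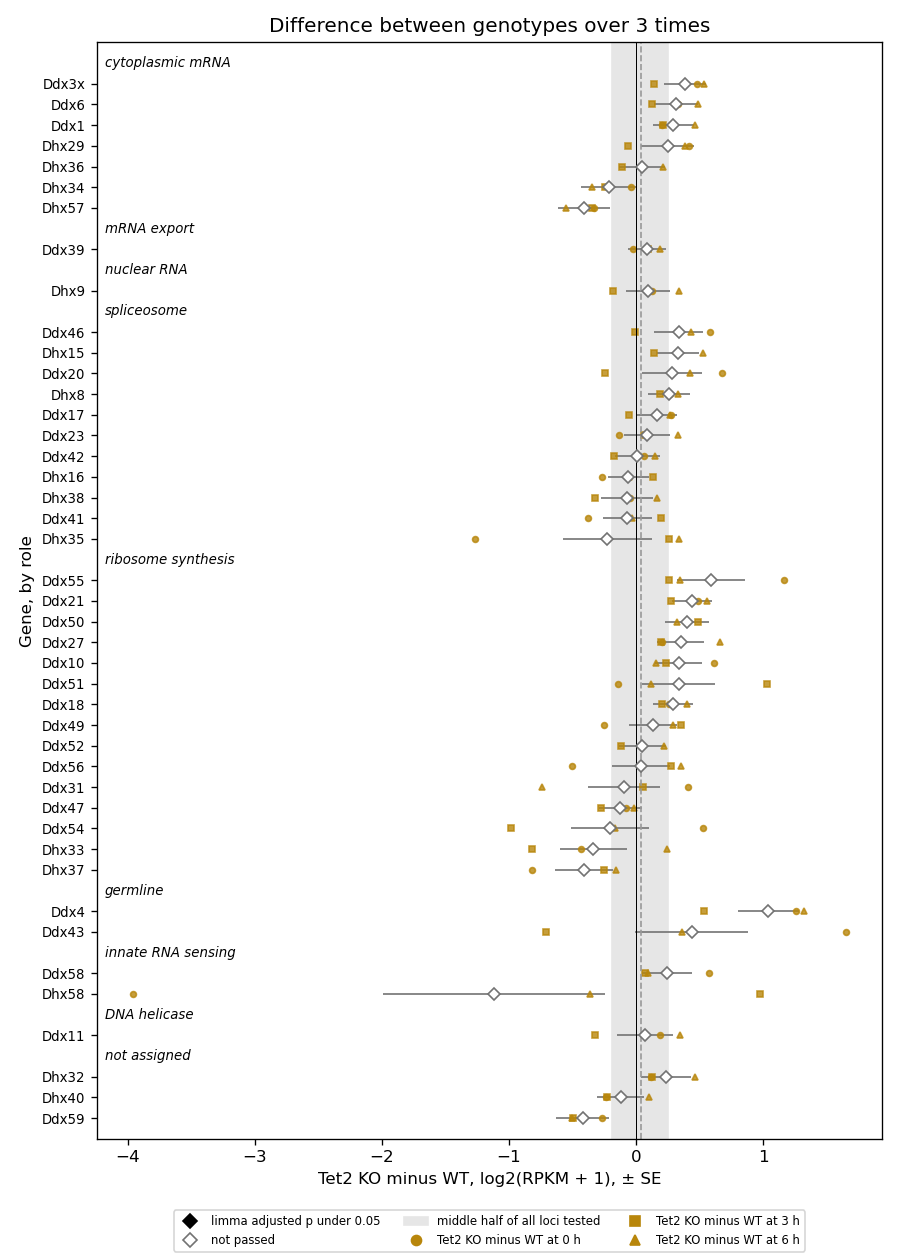
Tet2 KO minus WT difference on the log2(RPKM + 1) scale for the 43 genes grouped by role, as open diamonds with bars of ± 1 SE for the limma estimate over 3 times, and gold circles, squares and triangles for the differences at 0, 3 and 6 h. No diamond is filled, Ddx4 lies farthest to the right at 1.04, and the circle of Dhx58 at 0 h lies far to the left of its other times.

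No difference of slopes between genotypes passed the test, with 0 of 43 genes called for the interaction of time and genotype by limma, against 0% of all loci. Unadjusted, 1 gene, Dhx58, had a p under 0.05, or 2.33%, against 4.12% of all loci. Its slope was higher by 0.60 per hour in Tet2 KO cells than in WT cells (SE 0.25, limma adjusted p = 0.9996), and -0.24 without the WT library at 0 h. Leaving out Tet2 KO at 3 h or 6 h, which leaves 1 residual degree of freedom, gave adjusted p-values of 8.6e-05 and 0.00109 for Dhx58. The same fits called 177 and 263 of the 11855 loci, against 0 with all libraries.

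Dhx35, a helicase of the spliceosome, had 7.93, 18.4 and 6.89 RPKM in Tet2 KO cells, against 20.6, 15.2 and 5.26 RPKM in WT cells. The genotypes differed most at 0 h, and the slope was higher by 0.27 in Tet2 KO cells (SE 0.15, limma adjusted p = 0.9996). Without Tet2 KO at 0 h the difference of slopes was -0.13, and without Tet2 KO at 6 h it was 0.67 with an adjusted p of 0.0236. Ddx43 had the lowest slope difference, -0.22 (SE 0.15), with a value of 0.15 without the WT library at 0 h. Ddx31, a nucleolar helicase, had 6.55, 3.497 and 2.84 RPKM in Tet2 KO cells, against 4.70, 3.34 and 5.42 RPKM in WT cells, a slope difference of -0.19 (SE 0.11, limma adjusted p = 0.9996). It was lower at each later time in Tet2 KO cells, while in WT cells 6 h was the highest time.

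Bisulfite conversion reads m5C as the fraction of cytosines left unconverted. The 2 site tables listed 52 sites in 23 of the 43 genes, all at a level of 0.1 or more in both replicates. A site absent from a table may be below that level or not covered, since coverage is not given. The Tet2 KO table held 31 sites in 20 genes and that of WT held 28 sites in 16 genes, with 7 sites in 6 genes in both tables. Shared sites made up 22.6% of the Tet2 KO sites (95% exact binomial interval 9.59% to 41.1%) and 25% of the WT sites (10.7% to 44.9%), against 21.7% and 25.2% over all 4781 Tet2 KO and 4128 WT sites. The remaining 24 sites were listed in Tet2 KO only and 21 in WT only.

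At least 1 Tet2 KO site was listed for 46.5% of the genes, against 25% of 10242 tested genes with a RefSeq position, and at least 1 WT site for 37.2%, against 22.7%. A site shared by both tables was listed for 14.0% of the genes, against 7.01%. In either table the share was 53.5% of genes, against 35.3%. Among the helicase genes the share was larger at higher RNA levels, while over all genes it was highest from 10 to 30 RPKM. From 30 to 180 RPKM 9 of 10 helicase genes had a site, against 39.6% of all genes in that range. From 10 to 30 RPKM 9 of 18 had one, against 42.2%, and from 1 to 10 RPKM 5 of 15, against 31.6%. Genes with a site had a median of 25.6 RPKM and the 20 genes without one 10.3 RPKM. The abundant gene without a site was Dhx15, which acts in spliceosome release.

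Levels were mostly near the lowest level listed, with a median of 0.15 in the Tet2 KO table and 0.142 in the WT table. Over all sites the medians were 0.1485 and 0.143. A mean of 0.2 or more was reached by 7 Tet2 KO sites and 4 WT sites of the helicase genes. They are 22.6% and 14.3% of these sites, against 23.7% and 21.6% of all sites. Ddx17 carried the most sites, 6, in chr15:79527696-79546764 on the minus strand. Its site at chr15:79530068 had levels of 0.283 and 0.4 in Tet2 KO samples, against 0.464 and 0.528 in WT samples. It is the highest WT level among the helicase genes and was lower by 0.155 in Tet2 KO samples, without overlap, with a limma adjusted p of 0.633 over 1039 shared sites. Another Ddx17 site, at chr15:79534453, had 0.237 and 0.278 in Tet2 KO samples, against 0.254 and 0.187 in WT samples, and here the genotypes overlapped.

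The highest Tet2 KO level was in Dhx34, at chr7:16204067 on the minus strand, with 0.25 and 0.481, and this site was not listed for WT. Its replicates lie 0.231 apart, the widest gap among the helicase sites. Ddx39 had 5 sites, of which the one at chr8:83716579 reached 0.364 and 0.154 in Tet2 KO samples only. The strand of Ddx39 is not given in the tables used, and its site at chr8:83724660 on the minus strand may belong to Adgre5, which overlaps it. In the other direction, in WT samples only, Dhx16 had 0.2 and 0.318 at chr17:35882888.

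Genes with sites closer to the lowest level include Dhx8, which releases spliced mRNA, with 0.182 and 0.125 at chr11:101752429 in Tet2 KO samples only and 0.25 and 0.133 at chr11:101767105 in WT samples only. Dhx9 had 0.15 and 0.211 at chr1:153456075 and 0.167 and 0.105 at chr1:153456159, both in Tet2 KO samples only. The Dhx9 sites lie 319 and 403 bases from the 3′ end of the gene. Dhx57 had 2 sites in Tet2 KO samples only, the higher with 0.154 and 0.2 at chr17:80250082, and 1 in WT samples only. Ddx58 had 0.125 and 0.214 at chr4:40220705 in Tet2 KO samples only, and Dhx33 had 2 sites in WT samples only, the higher with 0.2 and 0.111 at chr11:70993686. Ddx43 and Ddx46 were listed in both tables at different positions, Ddx43 with 0.182 and 0.111 at chr9:78396092 in Tet2 KO samples and Ddx46 with 0.154 and 0.143 at chr13:55654174 in WT samples as their highest.

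The RNA levels of the genes with the highest sites differed widely. Ddx17 had 81.8, 78.9 and 73.5 RPKM at 0, 3 and 6 h in Tet2 KO cells, against 67.4, 81.96 and 60.8 RPKM in WT cells. Dhx8 had 22.7, 24.2 and 20.3 RPKM in Tet2 KO cells, against 18.7, 21.1 and 15.98 RPKM in WT cells. For both genes the genotypes overlapped. Dhx36 had 16.3, 15.07 and 11.9 RPKM in Tet2 KO cells, against 15.8, 16.4 and 10.08 RPKM in WT cells, and Ddx51 had 4.99, 9.14 and 4.52 RPKM in Tet2 KO cells, against 5.62, 3.96 and 4.08 RPKM in WT cells. Dhx36 was lowest at 6 h in each genotype, and Ddx51 was highest in Tet2 KO at 3 h. The gene with the highest Tet2 KO site, Dhx34, was the one of lowest RNA level. Genes with a site had a median slope of -0.03 and a median genotype difference of 0.16, and genes without one -0.06 and 0.05. Their RNA levels differed too, with medians of 25.6 RPKM with a site and 10.3 RPKM without one. Site and RNA level therefore cannot be told apart here. Whether slope or genotype difference goes with a site was not tested, and these medians were not split by site over all loci.

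Of the 7 shared sites, Tet2 KO was above WT without overlap at 3 and below at 2, or 42.9% and 28.6%, against 19.4% and 15.5% of the 1039 shared sites of all genes. Ddx1 had 0.185 and 0.189 at chr12:13219556 in Tet2 KO samples, against 0.136 and 0.133 in WT samples. Ddx54 had 0.194 and 0.226 at chr5:120618718 in Tet2 KO samples, against 0.133 and 0.137 in WT samples. In Ddx23, a splicing helicase, the site at chr15:98650677 had 0.141 and 0.117 in Tet2 KO samples, against 0.105 and 0.102 in WT samples. All 3 lay higher in Tet2 KO samples by 0.026 to 0.075, while Ddx49, a nucleolar helicase, was lower there, with 0.105 and 0.1 at chr8:70293485 in Tet2 KO samples, against 0.158 and 0.125 in WT samples. Limma on arcsine square root levels called 0 of the 7 and 0% of the 1039 shared sites, and 79 of the 1039 had an unadjusted p under 0.05, none of them in a helicase gene. With 2 samples a side, an exact permutation test could not go below p = 0.333.

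In some genes the sites lay in 1 stretch. In Ddx51, a helicase of the large ribosomal subunit, all 5 sites lay between 188 and 461 bases from the 5′ end of the gene, 1 listed in Tet2 KO only and 4 in WT only. The highest of them had 0.273 and 0.160 in WT samples. Dhx36, which opens G-quadruplexes, had 2 sites in Tet2 KO only, 140 and 152 bases from its 5′ end, with levels of 0.294 and 0.143 and of 0.2 and 0.1. Ddx20 had 1 site, 661 bases from its 5′ end, with 0.167 and 0.115 in Tet2 KO samples only, and Ddx6 had 1 site with 0.143 and 0.108 in WT samples only. Along the genes, 10 of the 45 sites in genes of known strand lay in the first 10% of the gene, or 22.2%, against 19.9% of sites in all tested protein-coding genes, and 14 lay in the last 10%, or 31.1%, against 31.3%. Exons, introns and UTRs were not part of the tables used, so these are positions in the whole gene.

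**Figure D5:**
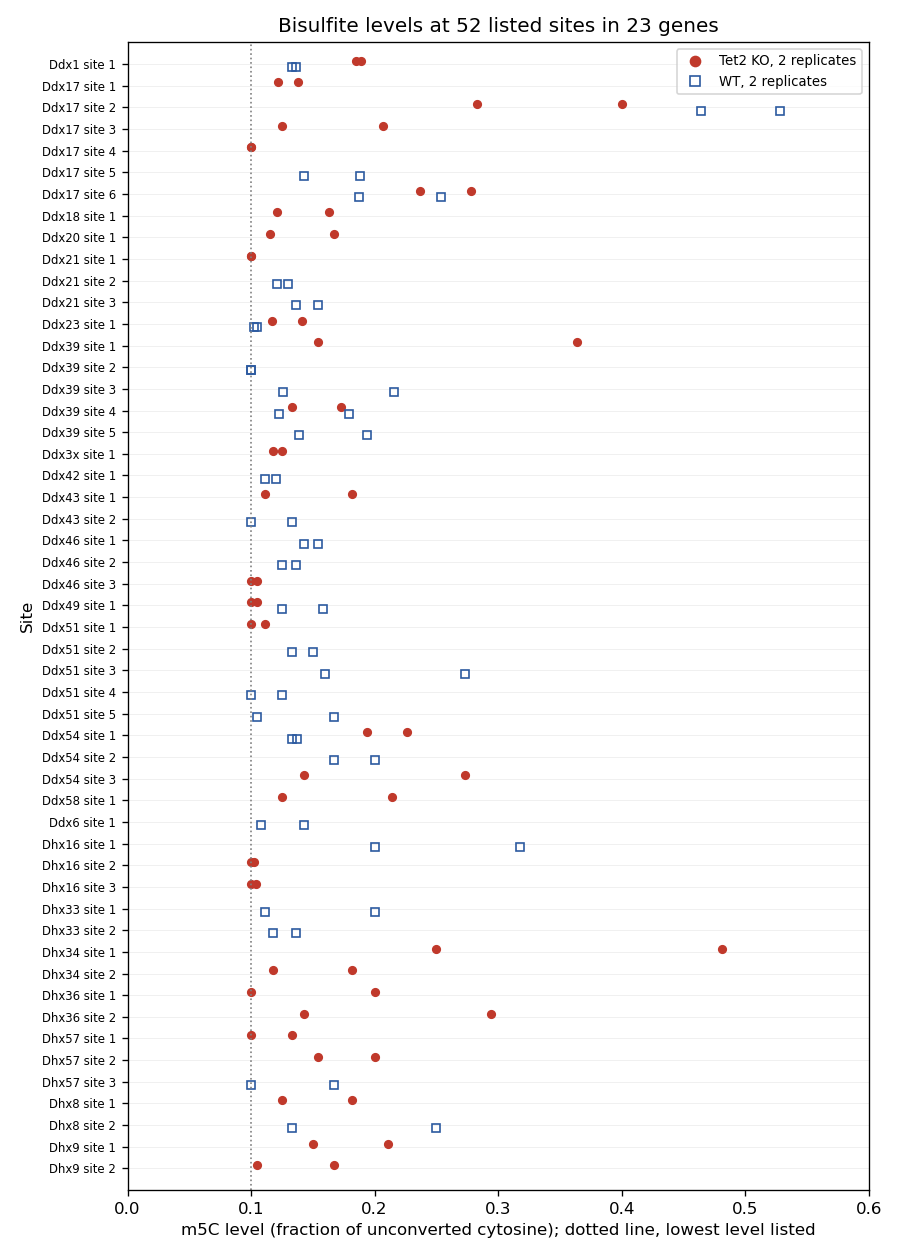
m5C level (fraction of unconverted cytosine) of each of the 52 listed sites in 23 helicase genes, with 2 filled red points per site for the Tet2 KO replicates and 2 open blue squares for the WT replicates; the dotted line marks the lowest level listed, 0.1. Most sites show only 1 genotype, and the second Ddx17 site has the highest WT level of the genes shown.

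Other RNA helicases and the partners of these helicases were read from lists. Of 25 other RNA helicases 17 were tested, and 1 fell after the block, where 7.91% of all loci fell. By limma 0 changed between genotypes, against 0.0759% of all loci, and 4, all higher in Tet2 KO cells, had an unadjusted p under 0.05, against 6.28% of all loci higher at that level. Supv3l1, a mitochondrial RNA helicase, had 47.6, 17.6 and 12.9 RPKM at 0, 3 and 6 h in Tet2 KO cells, against 15.6, 8.63 and 5.27 RPKM in WT cells, with a slope of -0.27 (limma adjusted p = 0.0162) and a genotype difference of 1.22 (limma adjusted p = 0.167). It was higher in Tet2 KO cells at every time and lower at each later time. Tdrd12, a helicase of the piRNA pathway, had 17.3, 23.8 and 16.3 RPKM in Tet2 KO cells, against 7.55, 5.12 and 8.40 RPKM in WT cells, a difference of 1.33 (limma adjusted p = 0.251) without overlap. The lowest difference in that list was -0.37, of Ythdc2, a helicase of germ cell meiosis. Of 36 partners 24 were tested, and 1 fell after the block. By limma 0 changed between genotypes, with 3 higher and 2 lower in Tet2 KO cells at an unadjusted p under 0.05, against 10.8% of all loci in either direction. Gemin2, a partner of Ddx20 in the SMN complex, had 15.1, 8.995 and 5.82 RPKM in Tet2 KO cells, against 17.3, 7.83 and 5.81 RPKM in WT cells, with a slope of -0.22 (SE 0.04, limma adjusted p = 0.0232). Gemin5, of the same complex, had a slope of -0.04 (limma adjusted p = 0.596). The decapping factor Dcp2, a partner of Ddx6, had a slope of 0.02 (limma adjusted p = 0.818). Pinx1, a G-patch protein of the nucleolus, had 39.1, 6.23 and 13.7 RPKM in Tet2 KO cells, against 6.68, 7.55 and 5.20 RPKM in WT cells, with the highest genotype difference of the partners, 1.13 (limma adjusted p = 0.468). Tfip11, the G-patch partner of Dhx15, had 5.27, 4.18 and 10.2 RPKM in Tet2 KO cells, against 16.3, 13.2 and 9.51 RPKM in WT cells, with the lowest, -0.94 (limma adjusted p = 0.435). For both the genotypes overlapped.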

How the data were processed

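The authors deposited an RPKM table of 6 RNA-seq libraries and 2 tables of m5C sites with a level as a fraction per replicate, per the file headers. RNA was poly(A) selected and depleted of ribosomal RNA, per the labels' protocols. Bowtie2, Cufflinks, MACS2, DESeq2, Trimmomatic and the builds mm10 and GRCm38 are named in the submitters' processing notes, without versions or roles, and the caller of the sites is not given in the sources used here. The header of the WT 0 h column lacks the first letter of RPKM and was taken as RPKM too. Another 8 samples, of m5C immunoprecipitation and its input, were not analysed here.

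The genes and all lists were chosen with earlier results of these data known. The RNA tests used the limma package (3.58.1, R 4.3.3) and log2(RPKM + 1) values over 11855 loci with a mean of at least 1 RPKM, with empirical Bayes moderation and a mean trend, two-sided, with Benjamini-Hochberg adjustment over all loci. A pseudocount of 1 understates the change of low genes. The slope fit left 3 residual degrees of freedom, the genotype and interaction fits 2 each. The tests were tried on simulated data first. The site tables name no gene, though the planned placement was by gene name, so sites were placed in RefSeq spans of GRCm38.p6, on the strand of the gene where it was known (6 genes lack it). Of 144 sites in promoter windows 144 were C on the listed strand. Levels were compared by limma on arcsine square root values. The shares of shared sites carry 95% exact (Clopper-Pearson) intervals that cover counting of sites only, and all other shares carry no interval. Replicate numbers of the bisulfite samples were not used as pairs across genotypes in the main fit. Members named with all 6 values were the highest and lowest in level, slope, genotype difference and slope difference, every gene called and the genes with the highest sites. Ddx50 and Ddx58 were given as well, chosen after their values were seen. Python 3.11.15, pandas 2.3.3 and scipy 1.17.1 were used.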

Additional observations from a re-analysis of the deposited data

Results flagged for a closer look

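In 7 helicase genes both later times lay on 1 side of the 0 h level in Tet2 KO cells and on the other side in WT cells. How many of all tested loci have this pattern was not counted, so it cannot be read as a trait of the helicase genes. The difference of slopes, Tet2 KO minus WT per hour on the log2 scale, was tested by the interaction of time and genotype in limma, and none passed (adjusted p = 0.9996 for each). Ddx49 (0.0909), Ddx56 (0.143), Dhx37 (0.111) and Dhx58 (0.5999) were above their 0 h level in Tet2 KO cells and below it in WT cells. Ddx43 (-0.215), Ddx54 (-0.116) and Ddx58 (-0.0794) were below it in Tet2 KO cells and above it in WT cells. Of these, Ddx49, Ddx54, Ddx56 and Dhx37 belong to ribosome synthesis and Ddx58 and Dhx58 to RNA sensing. Each pattern rests on 1 library per genotype and time, so a 0 h library that is high or low sets both of its comparisons. For Dhx58 the WT library at 0 h had 33.6 RPKM, and the later WT libraries 0.765 and 1.91 RPKM.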

How the results depend on the processing

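The 2 falling genes were 1 without a filter on low values, without the trend and with 6 h against 0 h alone, and 0 with quantile normalization, scaling to the Rpl and Rps genes and 3 h against 0 h alone. With 1 library left out the count lay between 0 and 2. Tet2 KO alone called 0 helicase genes and 0 of the 11855 loci. WT alone called 3 helicase genes, Ddx20, Dhx35 and Dhx58, and 1378 of the 11855 loci in either direction. Each of these fits rests on 3 libraries. Ddx20 was called in 9 of 17 settings (adjusted p from 0.00480 to 0.406) and Ddx6 in 4 of 17 (0.0364 to 0.463), and the slopes of both stayed below 0 in all of them. The median slope, -0.04, was 0.0173 with quantile normalization and 0.0269 with 3 h against 0 h alone, and lay between -0.0569 and -0.0120 with 1 library left out. No alternative called a helicase gene between genotypes, and the median difference of 0.09 lay between 0.04 and 0.18 in all of them. The count of slope differences, 0, lay between 0 and 2 with 1 library left out, in fits with 1 residual degree of freedom that called 293, 177 and 263 of 11855 loci without Tet2 KO at 0, 3 and 6 h and 0 without a WT library. Counting only sites with a mean level of at least 0.2 left 7 Tet2 KO and 4 WT sites. Leaving out sites that another gene may hold, an alternative chosen after seeing the data, left 31 and 27.

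Signs of single genes turned as follows. With 1 library left out, slopes lay between -0.00366 and 0.0576 for Ddx1, between -0.0342 and 0.0705 for Ddx46, between -0.0189 and 0.128 for Ddx54 and between -0.517 and 0.0519 for Dhx58, and the Dhx58 genotype difference between -2.16 and 0.305. Slope differences likewise lay between -0.580 and 0.1499 for Ddx43, between -0.134 and 0.670 for Dhx35 and between -0.236 and 1.44 for Dhx58. With 3 h against 0 h alone the slope was -0.00787 for Ddx54 and -0.0940 for Dhx34, and in Tet2 KO alone it was -0.0137 for Ddx54 and 0.00476 for Dhx58. The cause was not tested.

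Whether the replicate numbers of the bisulfite samples pair them across genotypes is not in the labels. Replicate 1 minus 2 had a correlation of -0.0015 between genotypes over 1039 shared sites. That value cannot decide it, because counting error may hide a shared difference. A fit with the replicate block called 0 of the 7 shared helicase sites, as without it, and 1 had an unadjusted p under 0.05, against 87 of 1039 sites, or 8.37%. The RNA-seq libraries carry no replicate numbers. Without read counts or coverage, counting error is unknown for every RPKM and level.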

Other observations

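Some family symbols outside the 43 genes also had values. Ddx5, whose entry also names Gm25994 and Mir3064, had 160.0, 167.6 and 150.8 RPKM at 0, 3 and 6 h in Tet2 KO cells, against 153.2, 183.1 and 131.9 RPKM in WT cells, which places it among the most abundant helicases of splicing. Ddx24, whose entry also names 9330161L09Rik, had 32.4, 37.1 and 27.7 RPKM in Tet2 KO cells, against 30.4, 30.4 and 21.3 RPKM in WT cells. Ddx39b, an export and splicing helicase with no level used here, had 3 bisulfite sites. The site at chr17:35249577 was listed in both tables, with 0.157 and 0.127 in Tet2 KO samples, against 0.155 and 0.193 in WT samples. Ddx28, a mitochondrial helicase, had 1 site in each table, and Ddx5 had 1 site in WT only, at 0.267 and 0.182.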
